A study of Rattus norvegicus with 7 samples.

Results

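The RNF (RING finger) and TRIM (tripartite motif) genes were examined in NR8383 cells, a rat alveolar macrophage line grown from lung lavage, after exposure to zinc oxide nanoparticles. Members were all non-control probes whose gene name on the array was Rnf or Trim followed by a number and at most 1 letter. The rule found 174 probes of 45598, for 129 of 36174 gene names: 75 RNF genes with 103 probes and 54 TRIM genes with 71 probes. Total RNA of 4 control cultures (0 µg/mL) and 3 cultures given ZnO NPs (NM110) was hybridised to 1-colour rat arrays, 1 array a culture, and the design text calls the cultures biological replicates. Both groups spent 4 h in medium without serum, so the controls shared that step. The labels give a ZnO dose of 2 µg/mL. The written methods give another dose, and which of them holds for these arrays was not settled here.

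Most RNF and TRIM proteins carry a RING domain, though some TRIM proteins such as Trim14 and Trim66 lack it. The RING is a fold in which cysteines and histidines hold zinc ions. The domain binds an E2 enzyme charged with ubiquitin and helps to pass the ubiquitin to a target protein, which can mark it for the proteasome or alter its signalling. In macrophages, several TRIM proteins and Rnf31 are known for their part in antiviral and NF-κB signalling, while other RNF proteins act on chromatin or in membranes. TRIM proteins also have a B-box and a coiled coil, and are grouped by what follows at the other end, such as an NHL, a bromodomain or a COS box.

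All arrays lay on 1 slide and were scanned in 1 run, and each group filled its own column of array positions, so an effect of position cannot be told apart from one of ZnO. The 75th percentile of signal ran from 958 to 1489 on the control arrays and from 980 to 1603 on the ZnO arrays, and no spot was saturated. The extraction software's own quality check flagged control replicate 3, control replicate 4, ZnO replicate 2 and ZnO replicate 3 for evaluation. It rated the other arrays as in range. Of the 11 macrophage markers on the array, 10 were well above background on all arrays and 1 on none. Cd68, Csf1r and Mrc1 were among the 10. Outside the 10, the list held Marco and Itgax, of which 1 was above background on no array and 1 was not on the array. On all arrays, 0 of 6 epithelial and 1 of 6 lymphocyte markers (Cd4) were well above background, and 4 of the epithelial markers were so on none. Markers of other cell types that were above background on all arrays were Cdh5, Pecam1 and Vwf (3 of 5 endothelial), Col1a2 and Dcn (2 of 5 fibroblast) and Camp and Mpo (2 of 5 neutrophil), and none of the markers of any list passed the adjusted threshold. Known zinc-responsive genes differed between the groups: the log2 fold change, ZnO over control, was 5.83 for Mt2A (SE 0.13, limma adjusted p = 3.89e-06), and 1.37 for the zinc exporter Slc30a1 (SE 0.09, adjusted p = 0.00279). Mt1a, like Mt2A a metallothionein that binds zinc, was 10.6-fold higher after ZnO (adjusted p = 3.75e-05).

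Promoters are shown first because 2 known response elements, one for metal and one for interferon, occur in members that were measured. RefSeq sequence (GRCr8) of the 250 bases before the start was matched for 106 of the 129 members. The metal response element core was searched as TGCACNC or TGCGCNC on both strands, and the interferon-stimulated response element as GAAA, any 2 bases and GAAA again, also on both strands. The first promoter below is that of Mt1a, with 6 metal cores, as a reference. Trim37 held 5 cores, more than any other matched member, and Rnf114 held 1 and is described below among the genes with the smallest p. Capitals mark the metal cores, and overlapping matches run together.
Mt1a, chr19:10832976-10833225, minus strand: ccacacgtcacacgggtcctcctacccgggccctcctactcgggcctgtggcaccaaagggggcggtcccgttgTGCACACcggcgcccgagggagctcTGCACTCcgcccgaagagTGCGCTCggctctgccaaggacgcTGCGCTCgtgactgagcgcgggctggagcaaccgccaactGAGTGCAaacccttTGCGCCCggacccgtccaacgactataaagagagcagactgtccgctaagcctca
Trim37, chr10:72440422-72440671, plus strand: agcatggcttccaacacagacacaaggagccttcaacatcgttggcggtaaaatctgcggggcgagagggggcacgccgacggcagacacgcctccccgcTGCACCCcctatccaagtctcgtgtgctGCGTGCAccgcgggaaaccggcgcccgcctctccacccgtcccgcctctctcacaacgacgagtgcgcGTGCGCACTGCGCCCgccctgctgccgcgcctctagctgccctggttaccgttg
Rnf114, chr3:176641249-176641498, plus strand: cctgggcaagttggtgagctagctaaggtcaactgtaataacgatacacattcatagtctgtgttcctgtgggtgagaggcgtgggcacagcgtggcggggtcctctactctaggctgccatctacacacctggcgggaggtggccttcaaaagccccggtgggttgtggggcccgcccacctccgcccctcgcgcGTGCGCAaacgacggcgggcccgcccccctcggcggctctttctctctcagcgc
Trim21 and Trim26 each held 2 overlapping matches to the interferon element, marked in capitals in the next pair.
Trim21, chr1:166399372-166399621, minus strand: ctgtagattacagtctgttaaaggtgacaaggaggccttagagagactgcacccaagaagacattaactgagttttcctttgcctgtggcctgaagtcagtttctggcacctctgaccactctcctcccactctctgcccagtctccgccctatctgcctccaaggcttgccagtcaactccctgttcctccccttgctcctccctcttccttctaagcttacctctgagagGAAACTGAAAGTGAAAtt
Trim26, chr20:1736312-1736561, minus strand: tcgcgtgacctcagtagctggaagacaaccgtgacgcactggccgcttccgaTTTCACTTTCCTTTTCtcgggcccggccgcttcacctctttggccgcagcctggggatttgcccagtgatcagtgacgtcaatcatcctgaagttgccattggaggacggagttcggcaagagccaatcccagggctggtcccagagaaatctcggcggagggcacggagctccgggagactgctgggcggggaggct

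At least 1 metal core was found in 24 of the 106 matched members (22.6%) and in 5829 of 27457 promoters of the same length (21.2%). The interferon element was found in 7 members (6.6%) and in 902 of all promoters (3.29%). Besides Trim21 and Trim26, these were Rnf121, Rnf183, Rnf20, Rnf219 and Trim40, with 1 match each. Of the members with a metal core, 15 were tested for a difference, with a median log2 fold change of 0.00 (range -0.12 to 0.45). The highest of these was Rnf150. The 55 tested members without a metal core had a median of 0.01 (range -0.30 to 0.50). Trim35, described below, was not among the matched members, so its promoter was not searched and it is in neither set. Trim37, a centrosomal TRIM with 5 cores, had a log2 fold change of -0.05 (SE 0.11, adjusted p = 0.999), while Mt1a with 6 cores was 10.6-fold higher. The value was -0.01 for Trim21, a cytosolic antibody receptor, and 0.04 for Trim26. A match is a match of letters and does not show that a factor bound there.

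Most RNF genes, and fewer of the TRIM genes, gave signal in these cells. Counting a probe as detected where every array had it well above background, 106 of the 174 member probes (60.9%) were detected, against 18997 of 45598 of all probes (41.7%). The count was 68 of 103 RNF probes (66.0%) and 38 of 71 TRIM probes (53.5%). For 54 member probes no array was well above background (31.0%, against 45.9% of all probes). All probes include transcripts without a gene symbol, which the members do not, so these shares compare unlike sets. In these bulk samples, fewer cells with a transcript and less transcript per cell cannot be told apart.

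By role, all 10 RNF genes of chromatin and DNA damage and all 8 of innate immune and NF-κB signalling were detected on each array of 1 group or both by some probe. They include Rnf8 and Rnf168, which ubiquitinate histones at DNA breaks, and Rnf20 and Rnf40, which together modify histone H2B. The same held for 7 of 8 RING-between-RING ligases, with Rnf144a on no array. Among innate immune TRIM genes it held for 14 of 18, while Trim38, Trim62, Trim68 and Trim8 were on no array. Of 9 TRIM genes grouped under microtubules and muscle, 4 passed (Trim36, Trim42, Trim46 and Trim55). Trim63, a ligase of muscle, and its relative Trim54 were on no array. Of the 4 NHL genes, Trim2 and Trim71, the second known from stem cells, were on no array, while Trim3 and Trim32 passed. In all, 35 genes (15 RNF and 20 TRIM) were above background on no array by any probe, and 87 genes (55 RNF and 32 TRIM) could be tested.

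**Figure D1:**
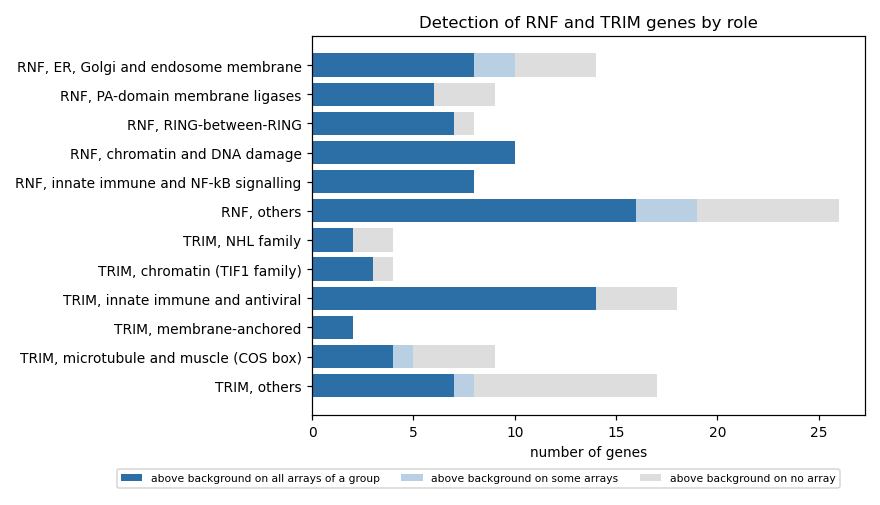
Number of RNF and TRIM genes (horizontal axis) in each role group, split by whether some probe stood well above background on each array of a group, on some arrays, or on none. Both the chromatin group (10 genes) and the innate RNF group (8 genes) are filled, while 9 of the 17 other TRIM genes were on no array.

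None of the 108 tested member probes passed an adjusted p of 0.05 with limma over all 20050 tested probes, of which 10 (0.0499%) did, all higher after ZnO. The study's own adjusted threshold of 0.001 was passed by none either. At an unadjusted p under 0.05 the count was 5 of 108 (4.63%), and over all probes it was 5.92%. Of these member probes 3 were higher (2.78%, against 3.06% of all probes) and 2 lower (1.85%, against 2.86%). The member share was below that of all probes here, but without ZnO replicate 1 the count was 11 (10.2%, against 8.94% of all probes) and without control replicate 1 it was 6 (5.56%, against 5.31%). The member probes had a median log2 fold change of -0.00, 53 above 0 and 55 below, and all probes had -0.01. Values ran from -0.42 to 0.50, and 0 member probes passed a 1.5-fold difference, against 1.09% of all probes.

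The arrays put a limit on how large an undetected difference could be. For 95 of the 108 member probes (88%), the 95% interval of the difference lay within 1.5-fold either way, and over all probes this was 82.6%. With each array centred on the spike-in probes instead, the interval lay within 1.5-fold for 0 member probes and for 0% of all probes. The member count was 94 with centring on the array median and 95 with quantile normalization. This limit thus holds relative to the signal of the whole array, and not relative to the spike-in probes. The median SE was 0.10 on the log2 scale. The intervals that went further belonged to 13 probes, of Rnf125, Rnf150, Rnf182, Rnf19b, Rnf214, Rnf26, Rnf40, Trim31, Trim35, Trim42, Trim46, Trim66 and Trim7. The interval of Trim31 ran from -1.17 to 0.59 and that of Rnf150 from -0.43 to 1.33. On the size scale, 36.1% of member probes and 41.7% of all probes differed by more than 0.1.

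**Figure D2:**
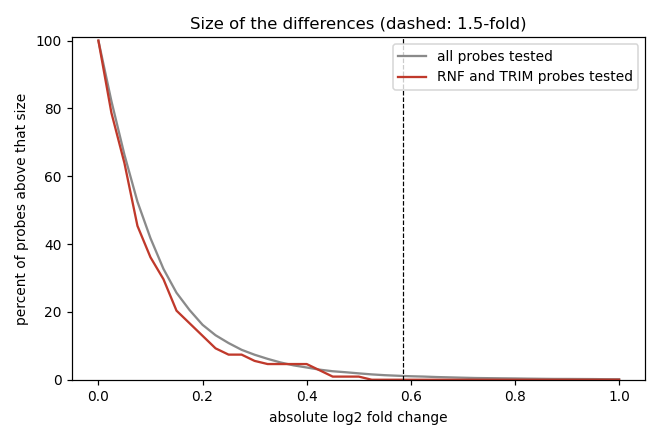
Percent of tested probes (vertical axis) whose absolute log2 fold change exceeds the value on the horizontal axis, for the 108 RNF and TRIM probes and for all 20050 probes tested. The member line falls to 5.56% at 0.3, where all probes stand at 7.37%, and reaches 0 before 1.5-fold.

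Trim35, an innate immune TRIM linked to antiviral signalling, came closest to the threshold. On its only probe (rn4 chr15:45748066-45748125, plus strand) the control arrays read 2.79, 2.84, 2.67 and 2.82, and the ZnO arrays 3.18, 3.24 and 3.26, as log2 intensity over the array's 75th percentile. Each ZnO array was above each control array. The log2 fold change was 0.45 (SE 0.07, 95% interval 0.28 to 0.61), with an unadjusted p of 0.000283 and an adjusted p of 0.284 by limma. With a trended and robust variance the adjusted p was 0.0429, and it lay between 0.0722 and 1.00 in the other settings tried.

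The other genes with the smallest p above 0 had smaller differences, except Rnf40, which is described below. Rnf7, the RING subunit of cullin-5 ligases, read -1.31, -1.21, -1.28 and -1.17 on the control arrays and -1.11, -0.98 and -0.98 after ZnO. The groups did not overlap, and the log2 fold change was 0.22 (SE 0.07, limma adjusted p = 0.747). Rnf114, a ligase of innate and NF-κB signalling, read 2.21, 2.24, 2.18 and 2.17 in the controls and 2.24, 2.43 and 2.51 after ZnO. Its ZnO arrays stood higher, though the first lay only just above the highest control, and the log2 fold change was 0.19 (SE 0.08, limma adjusted p = 0.835).

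In all, 10 member probes of 108 (9.26%) had groups that did not overlap, and over all probes this share was 7.39%. Of these, 6 were higher (5.56%, against 3.8% of all probes) and 4 lower (3.7%, against 3.59%). Higher after ZnO were Trim35, Rnf7, Rnf114, Trim65, Rnf219 and Trim47. The log2 fold change was 0.21 (SE 0.09, limma adjusted p = 0.844) for Trim65, a ligase of the RNA sensor MDA5, 0.16 (SE 0.07, adjusted p = 0.847) for Rnf219, a ligase of the replication origin complex now called Obi1, and 0.11 (SE 0.06, adjusted p = 0.920) for Trim47. Trim47 and Trim65 lie next to each other on the rn4 map, at chr10:106211265-106211324 and chr10:106232323-106232382, a pair noticed after their values were seen. Lower after ZnO were Rnf169, a reader of ubiquitin at DNA breaks (-0.13, SE 0.07, limma adjusted p = 0.893), Rnf139, a ligase of the endoplasmic reticulum (-0.08, SE 0.07, adjusted p = 0.957), the dimmer Rnf5 probe (-0.13) and the dimmer Trim34 probe.

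**Figure D3:**
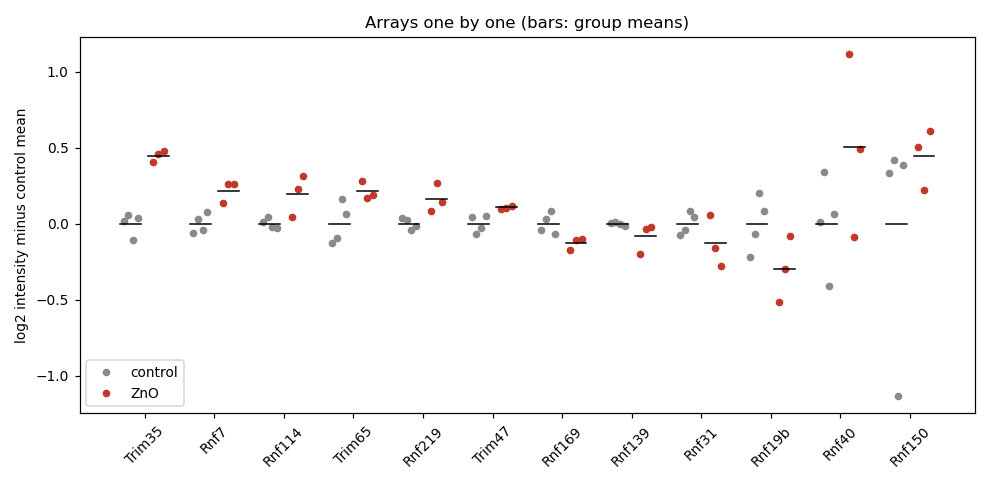
Log2 intensity of each array minus the control mean (vertical axis), for 12 genes by their brightest tested probe, with grey points for control arrays, red points for ZnO arrays and bars for the means. Trim35 shows the widest gap between groups among the 8 genes drawn that do not overlap, and the Rnf150 control mean is drawn down by 1 control array.

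Besides Trim35, the largest values came with wide intervals. Rnf40, the H2B ligase, read -4.79, -4.47, -5.22 and -4.74 in the controls and -3.69, -4.89 and -4.32 after ZnO. These groups overlapped, and the log2 fold change was 0.50 (SE 0.29, limma adjusted p = 0.905). It was 0.20 without ZnO replicate 1, 0.80 without ZnO replicate 2 and 0.10 with array weights. Rnf150, a membrane ligase with a PA domain, read -3.17, -3.08, -4.64 and -3.12 in the controls and -3.00, -3.28 and -2.89 after ZnO. The value of 0.45 (SE 0.38, limma adjusted p = 0.958) was 0.07 without control replicate 3. Rnf2, which ubiquitinates histone H2A, was at 0.22 (SE 0.11, adjusted p = 0.888), but its other probe was at 0.02.

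On the lower side, Rnf19b, a RING-between-RING ligase of natural killer cells and macrophages, read -3.62, -3.47, -3.21 and -3.32 in the controls and -3.92, -3.70 and -3.49 after ZnO. The log2 fold change was -0.30 (SE 0.14, 95% interval -0.61 to 0.02, limma adjusted p = 0.863), and the groups overlapped. Trim42 was at -0.22 (SE 0.27, adjusted p = 0.984), Rnf44 and Rnf6 at -0.19 each, and Rnf130 and Rnf123, a ligase of the cell cycle inhibitor p27, at -0.15 each. Single arrays moved these values: Trim42 was at -0.03 without ZnO replicate 2 and -0.39 without control replicate 1, and Rnf6 at -0.09 without ZnO replicate 1 and -0.32 without ZnO replicate 3. Rnf19b stood at -0.19 without ZnO replicate 1. For Rnf213, a very large ATPase with a RING, the value was -0.12 (SE 0.09, adjusted p = 0.949), and its second tested probe lay at -0.08.

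**Figure D4:**
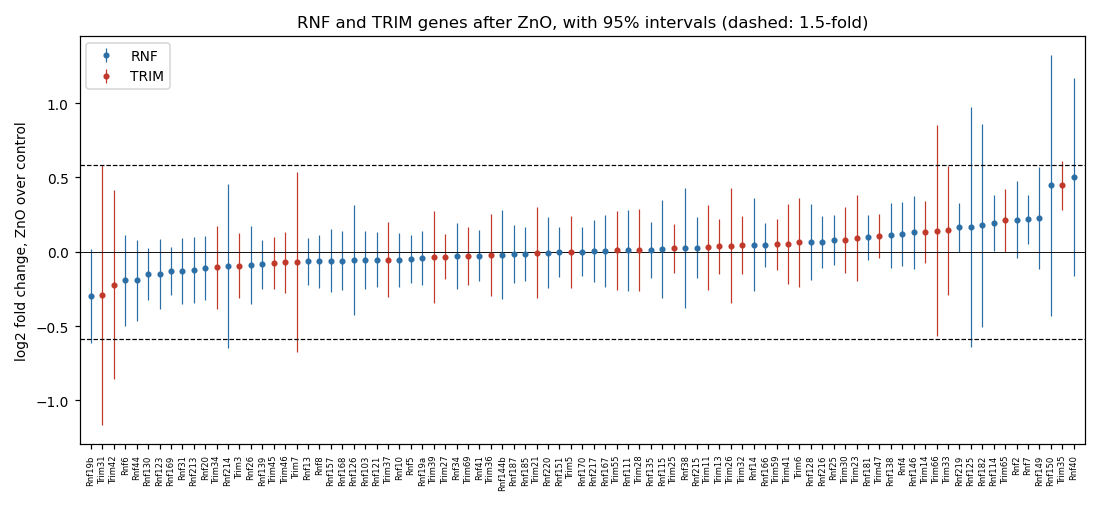
Log2 fold change, ZnO over control (vertical axis), with its 95% interval, for the 87 tested genes in order of value, RNF in blue and TRIM in red, by the brightest tested probe. The points run from -0.30 for Rnf19b to 0.50 for Rnf40, and most intervals stay between the dashed 1.5-fold lines.

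By role, the medians ran from -0.05 to 0.14. The 14 innate immune TRIM genes had a median of 0.05, 9 of them above 0, and ran from -0.29 for Trim31 to 0.45 for Trim35. Trim25, which activates the RNA sensor RIG-I, was at 0.02 and Trim14 at 0.13. The 3 chromatin TRIM genes had a median of 0.14, with Trim28, the corepressor of KRAB zinc-finger proteins, at 0.01. The other pair, Trim33 (SE 0.19) and Trim66 (SE 0.30), were both at 0.14, but Trim33 was well above background on 2 of 4 control arrays and Trim66 on 3 of 4, with 3 of 3 ZnO arrays each. Trim33 and Trim66 thus entered the test through the ZnO arrays only, and the median of 0.14 rests on them. Without control replicate 3, Trim33 was at 0.01 and Trim66 at -0.16. The NHL gene Trim3 was at -0.09 and the membrane-anchored Trim59 at 0.05. The 8 membrane RNF genes of the endoplasmic reticulum, Golgi and endosome had a median of -0.05, and their highest value was 0.18 for Rnf182 (SE 0.29, adjusted p = 0.999). The 10 chromatin RNF genes had a median of -0.03, and the 8 innate RNF genes 0.02.

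Rnf31 is the catalytic subunit of LUBAC, the complex that builds linear ubiquitin chains. It read -0.96, -0.93, -0.81 and -0.85 in the controls and -0.83, -1.05 and -1.16 after ZnO, and the groups overlapped. The log2 fold change was -0.13 (SE 0.09, 95% interval -0.35 to 0.09, limma adjusted p = 0.945). Its partners were at 0.02 for Rbck1 (SE 0.08, adjusted p = 0.999) and -0.07 for Sharpin (SE 0.09, adjusted p = 0.987), and Otulin, which takes linear chains apart, at -0.03 (SE 0.07, adjusted p = 0.999). The study, at the dose its methods give, lists Rbck1 as overexpressed after ZnO. Why the values for Rbck1 differ was not tested.

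Of the 129 genes, 19 had several tested probes. The values of these probes lay less than 0.2 apart in 14 genes and had the same sign in 13, and none lay more than 1.5-fold apart. The gap was 0.33 for Rnf26 (-0.42 on the dimmer probe, unadjusted p = 0.0419, and -0.09 on the brighter) and 0.33 for Trim46 (-0.40 and -0.07). For Trim25 the probes gave -0.24 and 0.02. The dimmer Trim34 probe read -4.08, -4.31, -4.18 and -4.26 in the controls and -4.49, -4.57 and -4.51 after ZnO, without overlap, at -0.32 (SE 0.08, unadjusted p = 0.00405, limma adjusted p = 0.572). The brighter Trim34 probe was at -0.11 with overlapping groups (SE 0.12, adjusted p = 0.980). The choice of these dimmer probes followed from their values. Trim6, Trim34, Trim5 and Trim30 are neighbours whose 5 probes spanned 98.6 kb (rn4 chr1:162072823-162171406), and no member probe shared a run of 25 bases with a probe of another gene. Whether a probe lay in an exon or a UTR was not assigned here.

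**Figure D5:**
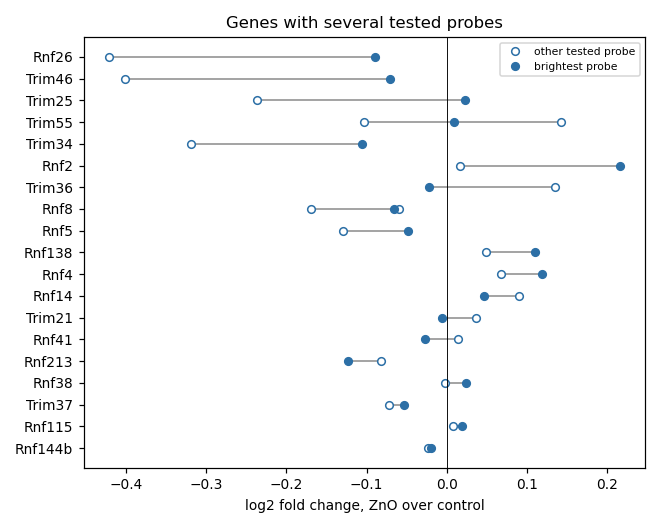
Log2 fold change, ZnO over control (horizontal axis), of each tested probe of the 19 genes with several, the brightest probe filled and the others open, with a line joining probes of a gene. Rnf26 and Trim46 show the widest gaps, 0.33 each, and both gaps lie below 0.

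Other genes of the ubiquitin pathway are given beside the members. Of 74 tested RING ligases of other families, 0 passed the adjusted threshold and 7 an unadjusted p of 0.05, 5 higher and 2 lower (9.46%, against 5.92% of all probes), with a median of 0.02. Among them were Rchy1, a p53 ligase, at 0.25 (SE 0.07, adjusted p = 0.644) and Traf6, which signals from Toll-like receptors, at 0.24 (SE 0.09, adjusted p = 0.819), with Pja2 at -0.19 (SE 0.07, adjusted p = 0.819). Of 35 E1, E2 and ubiquitin genes, 0 passed the adjusted threshold, and 2 higher and 1 lower passed the unadjusted one (8.57%, against 5.92% of all probes). The lower was Uba6, an activating enzyme, at -0.64 (SE 0.21, adjusted p = 0.744), and Ube2l6, the E2 of ISG15, was at 0.38 (SE 0.13, adjusted p = 0.787). Uba6 was dim, at -5.31, -5.17, -5.65 and -5.24 in the controls and -6.43, -5.56 and -5.95 after ZnO. On ZnO replicate 1 it lay under -5.70, the lowest value well above background there. Uba6 thus entered the test through the control arrays only. The 30 tested interferon-stimulated genes, read as a companion to the interferon element above, had a median of -0.02 and ran from -0.37 to 0.23, with 0 at either threshold.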

How the data were processed

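Intensity values were read from the deposited scanner files of an Agilent rat array, made per the file headers with Agilent Feature Extraction 11.0.1.1 from Cy3-labelled RNA. The authors applied percentile normalization in GeneSpring and Benjamini-Hochberg adjustment; the percentile and test were not given in the sources used here. A deposited intensity table equalled the scanner's median signal on every spot and served as an alternative. Here log2 of the background-subtracted, processed signal was taken minus that of each array's 75th percentile over non-control spots. Spots of 1 probe were averaged without outlier-flagged spots. Probes entered the test if every array of either group had them well above background. ZnO and control were compared with limma 3.58.1 (R 4.3.3), adjusted over all 20050 tested probes, without covariates. Tables were joined in Python 3.11.15 with pandas 2.3.3. The fit was tested on simulated data. The number of arrays limits the precision.

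Each gene takes its brightest tested probe, and levels were not compared between probes. Named genes were those at adjusted p under 0.05, the 8 smallest unadjusted p above 0 and the 8 below, the largest difference in each role group, genes whose probes differed by over 0.585, and up to 5 genes well above background in all arrays of 1 group only; Rbck1, Sharpin, Mt1a, Mt2A and Slc30a1, which are no members, were listed by name, and Otulin and the other pathway genes after their values were seen. Members, role groups and lists were chosen with earlier results of these data known. Of the member probes, 174 had a current symbol and 2 differed (Rnf219 is Obi1, Trim30 is Trim30d). Same-numbered arrays were not treated as pairs in the main fit. Their deviations correlated at -0.09, 0.21 and -0.23, which with so few arrays cannot show whether the cultures were paired. The alternatives were quantile, median and spike-in centring, normexp correction, the deposited table, other filters on dim probes, trended and robust variance, array weights, a replicate block and leaving out each array.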

Additional observations from a re-analysis of the deposited data

Results flagged for a closer look

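Of 24 control groups of 4 arrays checked, 2 had 1 array far from the rest. Chance flags about 1 group in 20 where groups are picked without regard to their values. Here Rnf150 was named for its difference and Trim66 for its background flags on these same arrays, so that rate does not apply to them. In Rnf150, control replicate 3 read -4.64 while the other controls lay between -3.17 and -3.08. In Trim66, control replicate 3 read -6.29 while the others lay between -5.15 and -4.93. Both are the same array, whose part in the 2 values was not tested beyond leaving it out. The extraction software's quality check had flagged that array, among others, for evaluation.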

How the results depend on the processing

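The count of member probes at adjusted p under 0.05 was 0 in the limma fit as reported, and 1 (Trim35) with a trended and robust variance; it was 0 without any 1 array. The count at unadjusted p under 0.05, 5 as reported, was 0 with spike-in centring (0.195% of all probes), 2 with normexp correction (1.85%, against 3.09% of all probes), 3 with the deposited table (2.78% against 3.55%) and 10 with array weights (9.26% against 13.3%). With single arrays left out it ran from 3 (without ZnO replicate 2, 2.78% against 4.17%) to 11 (without ZnO replicate 1, 10.2% against 8.94%). With spike-in centring the median of the member probes was 0.10, with that of all probes at 0.09, and the medians with 1 array left out ran from -0.02 to 0.00. Of 389 values of named genes under 17 alternatives, 382 kept their direction and side of the threshold, and 6 turned: Trim3 to 0.0037 with spike-in centring; Trim66 to -0.021 with normexp, -0.042 with the deposited table and -0.16 without control replicate 3; Rnf182 to -0.0018 without control replicate 3 and -0.072 without ZnO replicate 1. With 1 array left out, Trim66 ran up to 0.291 and Rnf182 up to 0.389. The causes were not tested. With the replicate number as a block, where control replicate 4 stands alone, the counts were 0 adjusted and 5 unadjusted and the median was -0.01. The 95% interval lay within 1.5-fold for 57.5% of member probes (38.3% of all) without the filter on dim probes and for 0 with spike-in centring.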
